A study of Mus musculus with 4 samples.

Results

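The Smad and Id transcription regulators were followed in cells sorted from the mouse ascending aorta: Smad2, Smad3, Smad4, Smad6, Smad7, Id1, Id2, Id3 and Id4. These 9 genes were chosen by family and name, out of 18107 genes common to the 3 count tables. They were read in 3 cell classes gated on unique molecular identifiers (UMIs, each a captured transcript). Smooth muscle cells had at least 5 UMIs of Myh11, the smooth muscle myosin heavy chain, and 0 of Pdgfra. Fibroblast cells had at least 1 UMI of Pdgfra, a platelet-derived growth factor receptor, and at most 2 of Myh11. Macrophage cells had at least 10 UMIs of C1qa, C1qb and Lyz2 together and fewer than 5 of Myh11.

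Smad proteins carry signals of the TGF-beta and BMP families from receptor kinases at the cell surface to the nucleus. Receptor-regulated Smads are phosphorylated by the receptors, pair with the common partner Smad4 and bind DNA, and the inhibitory Smads, Smad6 and Smad7, are themselves induced by the pathway and restrain it. Id proteins are classic BMP targets that lack a DNA-binding region, pair with basic helix-loop-helix (bHLH) factors and keep them off DNA. In the aortic wall TGF-beta and BMP signalling shape smooth muscle differentiation and matrix, and loss of human SMAD3 function is a known cause of thoracic aortic aneurysm.

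All libraries came from male mice of the strain Mef2c-mTmG, and lineage-sorted live cells were captured on the 10x Chromium 3′ v3 platform. The strain name joins Mef2c, whose regulatory DNA is used to mark the second heart field, and mTmG, a membrane reporter that changes colour where Cre has acted. A first group was SHF baseline, cells of the second heart field lineage at baseline. The next was SHF AngII, the same lineage 3 days into angiotensin II, a pressor peptide. The last was CNC AngII, the other sorted group after the same treatment, whose abbreviation the labels do not spell out. The sort itself was not checked from expression here. CNC baseline was not analysed here, so no comparison of AngII with baseline exists for the CNC cells. Each group had 1 library and the labels give neither ages nor numbers of animals, so no difference has a replicate check, no test was made, and differences between mice or preparations cannot be told apart from those between groups. The design asks how aortic cells of different embryonic origin respond to AngII.

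The libraries held 9412, 11166 and 11098 barcodes and 92474476, 147854476 and 150954701 UMIs (baseline first, then SHF AngII, then CNC AngII, the order of every trio of values), of which 8374, 9299 and 10194 cells were kept. Smooth muscle cells numbered 2259, 4649 and 6385, fibroblast cells 3939, 2640 and 842, and macrophage cells 8, 13 and 1764. Median depths per cell were 12441 to 13450 UMIs in smooth muscle, 9534 to 15485.5 in fibroblast and 11108.5 in the CNC AngII macrophage cells. Libraries shared 29 to 34 barcodes pairwise, at most 0.361% of the smaller library. All 7 smooth muscle markers and all 7 fibroblast markers had UMIs in their own classes, in every library. The gates set Myh11 and Pdgfra, so these genes are no separate check. Smooth muscle markers summed to 56289, 63865 and 57342 CPM in smooth muscle and to 1249, 4022 and 3911 in fibroblasts. Fibroblast markers summed to 31882, 19811 and 17092 CPM in fibroblasts and to 2642, 3273 and 3376 in smooth muscle. The 8 and 13 SHF macrophage cells were too few to read, and their fibroblast markers summed to 10764 and 6261 CPM against 164 in the CNC AngII macrophage cells. Levels are given as CPM, the UMIs of a gene per 1000000 UMIs summed over the cells of a class in a library, with 95% exact Poisson intervals that cover counting error only. Differences are log2 ratios of CPM + 1, and a ratio of at least 0.5 in size was counted as past the fold. The 95% binomial interval beside each ratio was computed without the added 1, again for counting error only, so a low gene's ratio lies nearer 0 than the middle of its interval.

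**Figure D1:**
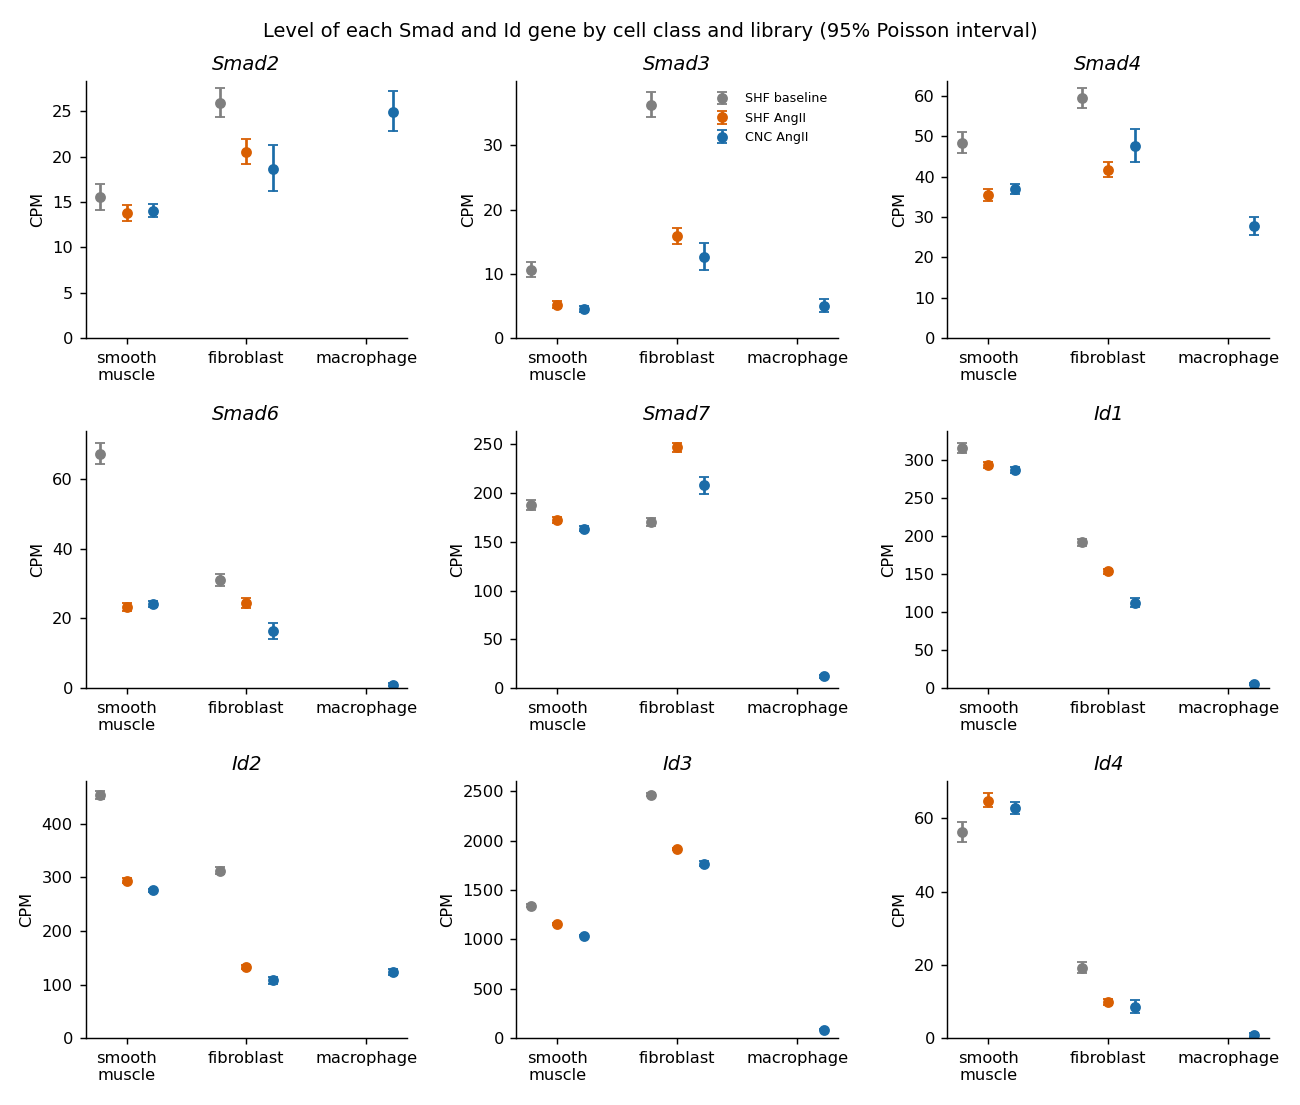
Level of each gene (vertical axis, CPM, from 0) in smooth muscle, fibroblast and macrophage cells (horizontal axis). Points are libraries (grey, SHF baseline; orange, SHF AngII; blue, CNC AngII), bars are 95% Poisson intervals, and classes under 50 cells are not drawn. Smad6 in smooth muscle stands at 67.2 CPM at baseline and below 25 CPM in both AngII libraries, whereas the macrophage cells are near 0 for Smad6, Id1 and Id4.

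Of Smad2, Smad3 and Smad4, only Smad3 passed the fold between SHF AngII and SHF baseline, and it was lower with AngII in both smooth muscle and fibroblasts. Smad3, a TGF-beta-regulated Smad (GENCODE M21 on GRCm38, chr9:63646767-63757994, minus strand), stood in fibroblast cells at 36.3 CPM at baseline, 15.9 under SHF AngII and 12.6 under CNC AngII. In smooth muscle it stood at 10.6, 5.20 and 4.53 CPM. The baseline library was the highest in either class, and its Poisson interval (34.4 to 38.3 CPM in fibroblasts, 9.48 to 11.9 in smooth muscle) met neither AngII interval. The log2 ratio of SHF AngII over SHF baseline was -1.15 in fibroblasts (interval -1.33 to -1.06) and -0.91 in smooth muscle (-1.25 to -0.81). In smooth muscle the mean level lay under 10 CPM and the ratio was -0.44 with 10 in place of 1 added to each CPM.

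Smad2, the other TGF-beta-regulated Smad (chr18:76241580-76310963, plus strand), was at 15.5, 13.8 and 14.0 CPM in smooth muscle and at 25.9, 20.5 and 18.6 CPM in fibroblasts. Its ratio of SHF AngII over baseline was -0.16 (-0.34 to -0.01) and -0.32 (-0.47 to -0.20), both inside the fold. The smooth muscle value of Smad2 has no settled direction, since it was 0.00 with TMM scaling (a scaling by the trimmed mean of ratios) and 0.06 in cells thinned to 2000 UMIs. With a stricter cell filter, which left 120 baseline smooth muscle cells, this value was -0.55, past the fold. Smad4, the partner that all receptor-regulated Smads share (chr18:73639009-73703780, minus strand), was at 48.4, 35.5 and 37.0 CPM in smooth muscle and at 59.4, 41.7 and 47.7 CPM in fibroblasts. Baseline was again the highest, with ratios of -0.44 (-0.54 to -0.35) and -0.50 (-0.60 to -0.42). The fibroblast value of Smad4 lies just inside the fold before rounding.

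Among the Smads that respond to BMP, the listed genes were Smad1, Smad5 and Smad9. Smad5 went from 17.7 to 10.9 CPM in smooth muscle (-0.66) and from 35.2 to 19.6 CPM in fibroblasts (-0.81), and Smad1 stood at -0.43 and -0.49. Smad9 had a mean under 10 CPM in both classes.

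Inhibitory Smads differed between the classes. Smad6, which preferentially restrains BMP signalling (chr9:63953076-64022059, minus strand), had the largest ratio of the 9 genes between SHF AngII and SHF baseline, in smooth muscle. The 250 bases before its RefSeq start (GRCm38.p6, chr9:64022060-64022309, minus strand) are shown because Smad6 is both a part of the pathway and a gene that Smads act on. Capitals mark the beginning of GTCTAGAC, a palindrome that Smad proteins bind, which runs across the start site.
Smad6 promoter: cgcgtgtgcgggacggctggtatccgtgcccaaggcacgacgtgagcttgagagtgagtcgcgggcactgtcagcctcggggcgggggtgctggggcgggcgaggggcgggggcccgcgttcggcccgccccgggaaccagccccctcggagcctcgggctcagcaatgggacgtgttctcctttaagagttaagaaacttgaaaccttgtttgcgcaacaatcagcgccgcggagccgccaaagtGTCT
The whole site, with 11 bases on either side, lies at chr9:64022056-64022063, 4 bases before and 4 after the start.
Smad6 site: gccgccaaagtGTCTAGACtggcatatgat
GTCTAGAC is its own reverse complement, so either strand gives the same match. It was found in 70 of 32817 RefSeq promoter windows of 300 bases (0.213%). Searched in the same way, GGCGCC, a GC-rich element bound by BMP-regulated Smads, was in 11.9% of windows, GCGGGGGCG, an Egr1 element, in 2.91% on either strand, and TGACGTCA, a cyclic AMP response element, in 1.79%. None of the other 3 motifs is in the Smad6 window, and the Smad3 window holds none of the 4. A match describes the letters and does not show binding in these cells.

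In smooth muscle Smad6 was at 67.2 CPM at baseline (64.3 to 70.2), at 23.3 after AngII in the SHF library (22.2 to 24.4) and at 24.1 in the CNC library (23.2 to 25.2). The baseline library stood alone, and both AngII libraries lay at nearly the same level. SHF AngII was 2.81-fold lower than baseline, a log2 ratio of -1.49 (-1.62 to -1.43), and 0.872% of the 6999 genes with a mean of at least 10 CPM had a lower one. Over 11 alternatives the Smad6 ratio ranged from -2.17, with a cell filter that left 120 baseline smooth muscle cells, to -1.21, with 10 added to each CPM, and it was past the fold in all 11. Fewer cells were positive as well: 46.1%, 26.9% and 27.3% of smooth muscle cells had a Smad6 UMI, against 1.25% of macrophage cells. After thinning every cell to 2000 UMIs these shares were 12.0%, 4.89%, 5.01% and 0.114%. Fibroblasts had less at baseline, with Smad6 at 30.9, 24.4 and 16.3 CPM, and their ratio of SHF AngII over baseline was -0.33 (-0.46 to -0.22).

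Smad7, which restrains both branches by blocking and degrading receptors (chr18:75367529-75395935, plus strand), was at 188, 173 and 164 CPM in the smooth muscle cells of the 3 libraries. The 3 libraries were close, with a ratio of SHF AngII over baseline of -0.12 (-0.17 to -0.07). This ratio depends on the setting. It was 0.06 with TMM scaling and -0.71, past the fold, with the cell filter that left 120 baseline smooth muscle cells. Fibroblasts had 170, 247 and 208 CPM, so here both AngII libraries were above baseline. Smad7 was 1.45-fold higher in SHF AngII, a log2 ratio of 0.53 (0.49 to 0.58), which made it the single member past the fold upward. The share of fibroblasts with a Smad7 UMI was 54.3%, 79.4% and 68.8%, at median depths of 9534, 15485.5 and 12379.5 UMIs, and 23.2%, 33.1% and 29.5% after thinning. Among the CNC AngII macrophage cells it was 10.2%, and 2.45% after thinning.

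Id genes gave a mixed picture, in which Id2 differed most. Id2 (chr12:25093799-25097140, minus strand), widely expressed and also known as a regulator of immune lineages, was at 453, 294 and 276 CPM in smooth muscle. In fibroblasts Id2 was at 312, 133 and 108 CPM. Baseline was the highest library in both classes, and the ratio of SHF AngII over baseline was -0.62 (-0.66 to -0.59) in smooth muscle and -1.22 (-1.27 to -1.18) in fibroblasts. With TMM scaling the smooth muscle value of Id2 was -0.45 and no longer past the fold. After thinning, the share of cells with an Id2 UMI was 50.1%, 43.0% and 41.9% in smooth muscle and 35.5%, 21.6% and 17.7% in fibroblasts.

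Id1 and Id3, which are induced rapidly by BMP, differed less. Id1 (chr2:152736251-152737410, plus strand) was at 316, 294 and 287 CPM in smooth muscle and at 192, 154 and 112 CPM in fibroblasts. Its ratio of SHF AngII over baseline was -0.10 (-0.14 to -0.07) and -0.32 (-0.37 to -0.27), and the smooth muscle value of Id1 was 0.07 with TMM scaling. Id3 (chr4:136143497-136145755, plus strand) was at 1342, 1158 and 1039 CPM in smooth muscle and at 2464, 1915 and 1767 CPM in fibroblasts, with ratios of -0.21 (-0.23 to -0.20) and -0.36 (-0.38 to -0.35). With the cell filter that left 120 baseline smooth muscle cells, the smooth muscle ratio of Id3 was -0.64. Cell-to-cell spread of Id3 was wider at baseline: in cells thinned to 2000 UMIs its variance over its mean was 3.16, 1.86 and 1.61 in smooth muscle and 6.09, 3.22 and 3.75 in fibroblasts, where Poisson counting alone gives 1.

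Id4 (chr13:48261228-48266026, plus strand), the family member best known from neural and glial development, was higher in smooth muscle than in fibroblasts of each library, read over whole classes. It was at 56.2, 64.9 and 62.9 CPM in smooth muscle and at 19.3, 9.91 and 8.56 CPM in fibroblasts. The AngII libraries were thus the higher in smooth muscle, at a ratio of 0.20 (0.13 to 0.29), and the lower in fibroblasts, at -0.89 (-1.13 to -0.79). Its exons overlap those of A330033J07Rik and Gm49291 on the opposite strand, which had 0 and 1 UMIs in SHF AngII against 5967 of Id4. The 250 bases before the RefSeq start of Id4 (GRCm38.p6, chr13:48260866-48261115, plus strand) are shown because it is the Id gene whose 2 classes stood on opposite sides of baseline. Capitals mark GGCGCC, 148 to 143 bases before the start.
Id4 promoter: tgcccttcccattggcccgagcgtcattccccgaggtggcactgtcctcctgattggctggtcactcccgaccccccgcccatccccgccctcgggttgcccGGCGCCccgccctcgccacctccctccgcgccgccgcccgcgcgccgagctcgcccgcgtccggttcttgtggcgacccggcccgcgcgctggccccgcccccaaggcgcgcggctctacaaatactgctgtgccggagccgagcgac
The RefSeq windows of Id2, which holds GGCGCC, and of Id3, which holds none of the 4 motifs, overlap annotated exons of these genes in GENCODE and are not shown.

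Counted over the 9 genes, SHF AngII against SHF baseline in smooth muscle gave 0 higher and 3 lower (Smad6, Smad3 and Id2), where 11% of the 6999 genes tested (mean of at least 10 CPM, which Smad3 missed) were higher by the same rule and 20.3% lower. With TMM scaling these background shares were 17.9% and 11.8%, and the median log2 ratio of all genes moved from -0.10 to 0.07. In fibroblasts 1 gene was higher (Smad7) and 3 were lower (Id2, Smad3 and Id4), against 13.4% higher and 32.3% lower of 7692 genes. The fibroblast shares under TMM scaling were 23.9% and 19.7%, with the median of all genes moving from -0.21 to 0.04. At a fold of 1 the smooth muscle count was 1 lower (Smad6) against 3.53% of genes, and the fibroblast counts 0 higher against 4.64% and 2 lower (Smad3 and Id2) against 10.7%. With 9 genes these counts are a description, and nothing is drawn from them about the group.

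**Figure D2:**
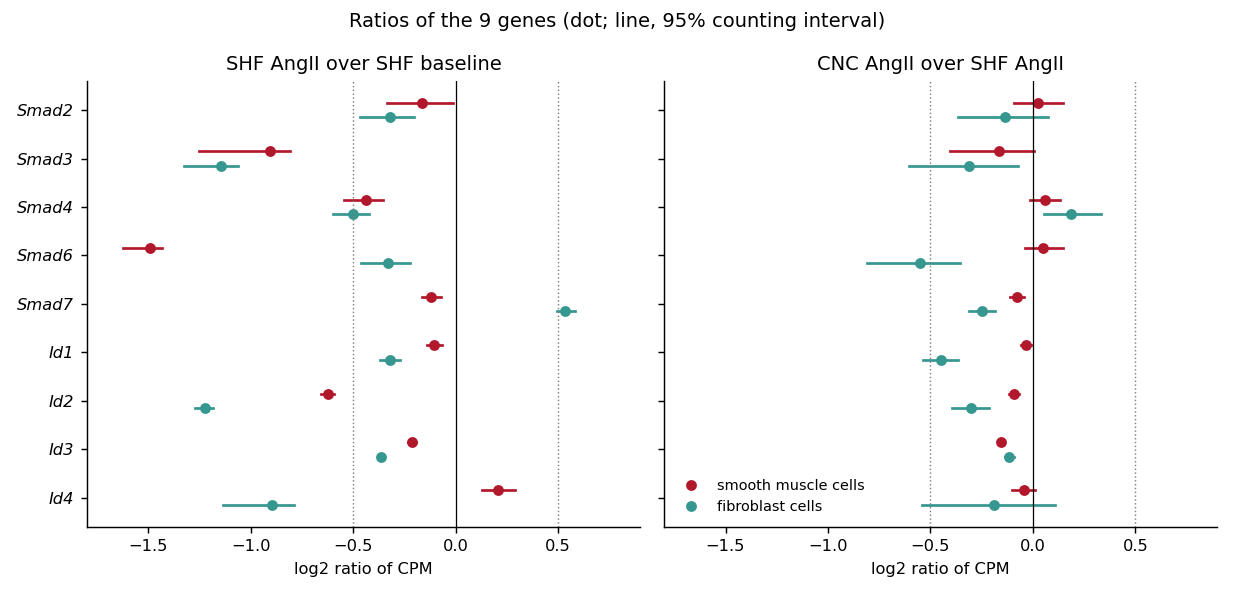
Log2 ratio of CPM (horizontal axis) of each gene in smooth muscle (red) and fibroblast cells (green), for SHF AngII over SHF baseline and for CNC AngII over SHF AngII. Dots are ratios with 1 added to each CPM, lines are 95% counting intervals without it, and dotted lines mark the fold of 0.5. Smad6 lies farthest left, at -1.49 in smooth muscle, and Smad7 lies at 0.53 in fibroblasts, while the smooth muscle dots of the second panel all sit between -0.17 and 0.06.

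Several other measures moved with the baseline library. Immediate early genes, which are switched on within minutes of stimulation or tissue dissociation, had a median of 153 UMIs per 10000 in baseline smooth muscle cells, 87.9 in SHF AngII and 80.0 in CNC AngII, and of 180, 102 and 94.9 in fibroblasts. Median mitochondrial UMIs of smooth muscle cells were 7.36%, 5.43% and 5.16%. The listed smooth muscle markers summed to 1249, 4022 and 3911 CPM in fibroblasts, all 7 with UMIs in each library. Cells with 50 to 150 immediate early UMIs per 10000 were therefore also read alone. They were 765 of 2259 baseline and 2757 of 4649 SHF AngII smooth muscle cells, and 1207 of 3939 and 1222 of 2640 fibroblasts. Both baseline medians lie above 150, so the window left out the upper part of the baseline cells. Across fibroblasts, the immediate early genes Btg2 and Zfp36 went with Smad7 (r 0.39) and Id3 (0.41). The part of this selection in the ratios was not tested. Within the window, Smad6 in smooth muscle was at -1.52, Smad3 at -0.92 and Id2 at -0.70. Smad7 in fibroblasts was at 1.21, Id2 at -0.86 and Smad3 at -1.06. Id1 and Id3 in smooth muscle turned to 0.27 and 0.16 and Smad7 there to 0.15, and Id4 there was at -0.01. Id3 in fibroblasts turned to 0.48. The part of mitochondrial content and of smooth muscle RNA in these ratios was not tested.

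**Figure D3:**
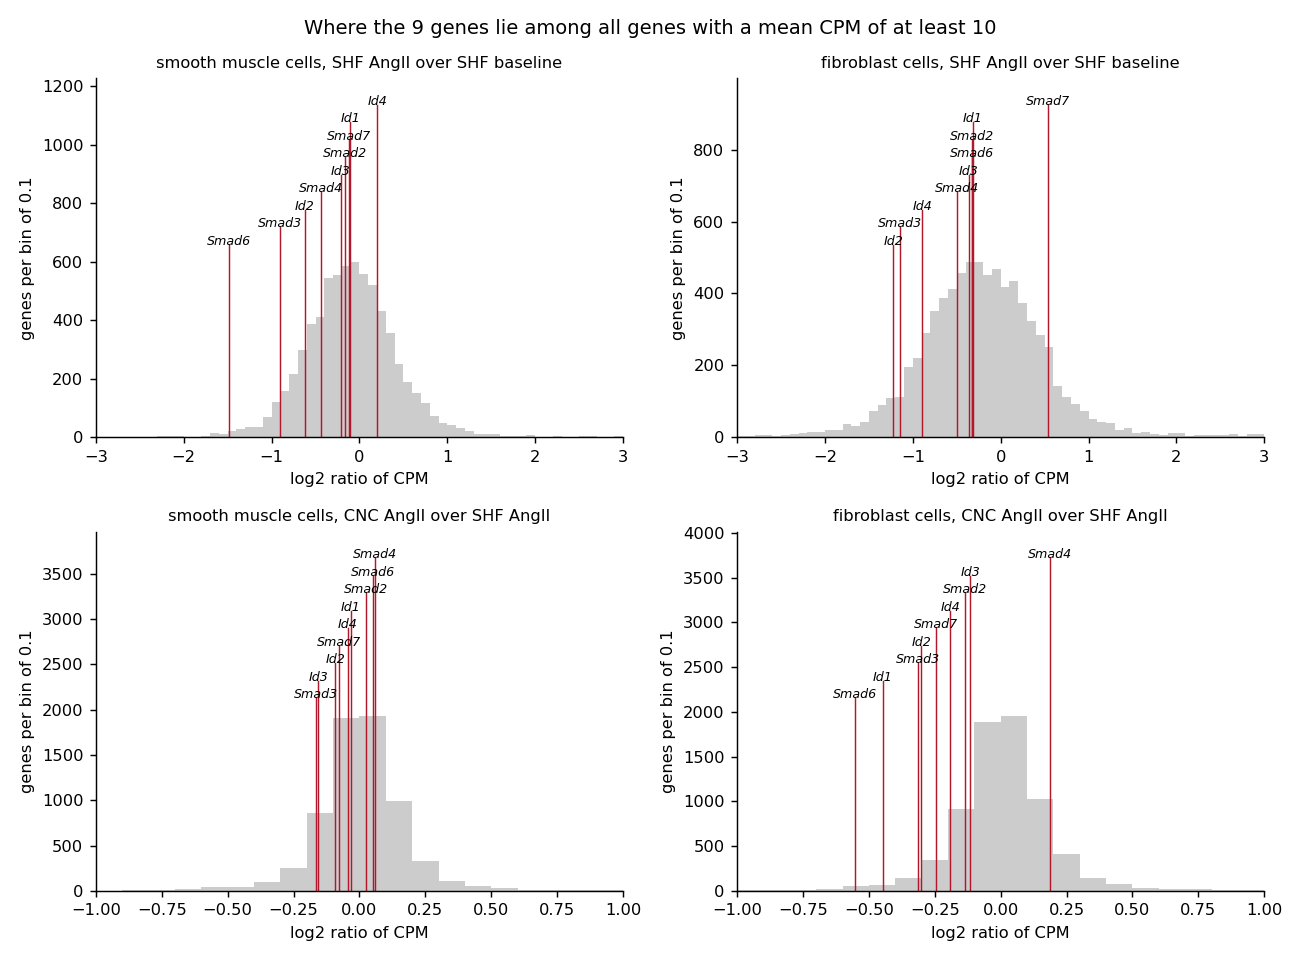
Number of genes (vertical axis) per log2 ratio bin of 0.1 (horizontal axis) among genes with a mean of at least 10 CPM, for the 4 comparisons between libraries, with all 9 genes as red lines, also where they fall under that minimum. The upper panels span -3 to 3 and the lower ones -1 to 1. Smad6 lies in the lower tail for SHF AngII over SHF baseline in smooth muscle, where 0.872% of genes are lower. Most other lines fall in the body of each distribution.

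The CNC and SHF libraries were then compared under AngII, where both tables list the same genes. In smooth muscle the 9 ratios of CNC AngII over SHF AngII ran from -0.17 for Smad3 to 0.06 for Smad4, so 0 were higher and 0 lower, against 1.35% and 1.45% of 6764 genes. Smad6 was at 0.05 (-0.04 to 0.15), Id4 at -0.04 (-0.10 to 0.01) and Id3 at -0.16 (-0.17 to -0.14). Summed macrophage markers of smooth muscle cells were 3.08, 2.49 and 347 CPM in the 3 libraries, so some macrophage RNA accompanied the CNC AngII cells, and its part in these values was not tested. The counting interval of each of the 9 genes in smooth muscle lay inside the fold, that of Smad3 (-0.40 to 0.01) coming closest to it.

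In fibroblasts, of which CNC AngII had 842, 0 genes were higher and 1 was lower. Smad6 was past the fold, at 24.4 CPM in SHF AngII and 16.3 in CNC AngII (-0.55, -0.81 to -0.35), and Id1 was next, at 154 and 112 CPM (-0.45, -0.54 to -0.36). Of 7214 genes tested, 1.65% were higher and 1.71% lower, and 1.32% had a lower ratio than Smad6. Id2 was at -0.30 (-0.39 to -0.22), Smad7 at -0.25 (-0.31 to -0.18) and Smad3 at -0.31 (-0.60 to -0.07), whereas Smad4 was at 0.19 (0.05 to 0.33). The intervals of Smad2 (-0.36 to 0.07) and Id4 (-0.54 to 0.11) reached past 0. The call of Smad6 rests on a value close to the fold. It was -0.35 after thinning, inside the fold, and at a fold of 1 the count was 0 against 0.152% of genes. Macrophage markers in fibroblasts summed to 14.1, 24.7 and 250 CPM, and their part was not tested.

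Between the classes of a library, smooth muscle had more Smad6, Id1, Id2 and Id4 at baseline and fibroblasts had more Smad2, Smad3 and Id3. The log2 ratio of fibroblast over smooth muscle was 1.68, 1.44 and 1.30 for Smad3, and 0.88, 0.73 and 0.77 for Id3. On the other side it was -0.72, -0.93 and -1.34 for Id1, -0.53, -1.13 and -1.34 for Id2, and -1.50, -2.59 and -2.74 for Id4. Smad6 changed its place: it was at -1.09 (-1.22 to -1.01) at baseline, at 0.06 (-0.04 to 0.18) in SHF AngII and then -0.54 (-0.79 to -0.35) for CNC AngII. Smad7 was at -0.14, 0.51 and 0.34, and Smad4 at 0.29, 0.23 and 0.36. Past the fold were 7, 7 and 6 of the 9 genes. Of all genes tested (mean of at least 10 CPM), 41.8%, 43.7% and 42.6% were. At a fold of 1 the counts were 3, 3 and 4, against 21.5%, 22.4% and 21.4%. Smad3 missed that mean in CNC AngII and is part of the 6 and the 4 there. The CNC AngII call of Smad6 rests on a value close to the fold, past it in 5 of 11 alternatives and between -0.78 (TMM scaling) and -0.23 (thinning). Smad2 (0.54) and Smad7 in SHF AngII also lie close to the fold, past it in 6 and 5 of 11 alternatives. With TMM scaling they were at 0.35 and 0.31, inside the fold. Id2 at baseline was past the fold in 8 of 11. TMM scaling moved the ratios between classes by -0.29, -0.20 and -0.25 in the 3 libraries, which put Smad6 in SHF AngII at -0.13. At baseline it turned the background from 28.1% higher and 13.6% lower to 18.7% and 22.2%.

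Macrophage cells could be read in CNC AngII alone. Smad2 was at 24.9 CPM there, Smad4 at 27.8, Id2 at 123 and Id3 at 88.7. Smad2 was above smooth muscle of the same library (0.79, 0.68 to 0.98), and Id2 was near the fibroblast level (0.19, 0.09 to 0.29). That Id2 ratio depends on the setting. It was -0.04 with gates per 10000 UMIs and 1.03 in cells with 50 to 150 immediate early UMIs per 10000. The other genes were low in macrophage cells, with Smad3 at 4.96 CPM, Smad7 at 12.2 and Id1 at 5.97. Smad6 had 22 UMIs over 1764 cells (1.06 CPM) and Id4 had 18 (0.867 CPM), next to 257 CPM of the smooth muscle actin Acta2 in the same cells and 33591 CPM in smooth muscle. Whether these few UMIs come from the macrophage cells themselves or from free RNA was not tested, and no ratio is given for these 2 genes. Against smooth muscle, 6 genes with a mean of at least 10 CPM were lower and Smad2 was higher. The count of 6 includes Smad6 and Id4, with the limit just given. Of the 7573 genes tested in the same comparison, 26.1% were lower and 38.1% higher. Id1 was at -5.37 (-5.85 to -5.33), Smad7 at -3.64 (-3.93 to -3.57) and Id3 at -3.53 (-3.62 to -3.48).

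Subsets of the macrophage cells differed in Id2, Id3 and Smad7. Cells with a UMI of Lyve1, a marker of resident macrophages, numbered 1349 (median depth 11730 UMIs), cells with Ccr2, a chemokine receptor of monocyte-derived cells, and no Lyve1 numbered 286 (9874 UMIs), and 129 had neither (8134 UMIs). Id2 was at 89.8 CPM in the Lyve1 cells, 269 in the Ccr2 cells and 260 in the rest. Id3 was at 63.5, 192 and 205 CPM, and Smad7 was at 7.79, 29.5 and 34.0 CPM. The Lyve1 cells were the low set for all 3 genes, and the intervals of the other sets overlapped each other for Id2, Id3 and Smad7. Smad2 (24.3 to 25.9 CPM) and Smad4 (23.2 to 28.5 CPM) had overlapping intervals in the 3 sets, and Acta2, a gauge of smooth muscle RNA, was at 252, 245 and 367 CPM.

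Within smooth muscle, Igfbp2, an insulin-like growth factor binding protein, had a UMI in 23.7%, 67.5% and 81.0% of cells, and Tnnt2, cardiac troponin T, in 69.3%, 57.9% and 22.1%. The Smad6 ratio of SHF AngII over SHF baseline was past the fold on either side of both splits. Cells with Igfbp2 went from 48.0 to 23.1 CPM (-1.03, -1.22 to -0.89) and cells without from 74.4 to 23.9 CPM (-1.60, -1.79 to -1.49). With Tnnt2 the Smad6 ratio was -1.47 and without it -1.37. Id2 and Id1 differed between the Igfbp2 sets. Id2 was at -0.26 with Igfbp2, inside the fold, and at -0.72 without, and Id1 was at 0.21 and -0.21. Id4 was at 0.54, past the fold, with Igfbp2 and at 0.32 without. With and without Tnnt2, Id2 was at -0.63 and -0.54. The class ratios of these genes thus mix sets whose shares differ between libraries. At baseline Smad6, Id1, Id2, Id3 and Id4 were lower in Igfbp2 cells than in the others, by ratios of -0.62, -0.42, -0.48, -0.41 and -0.58. The Igfbp2 cells were also the deeper ones (14501.5 against 11965 UMIs), and the part of depth was not tested. In SHF AngII the same 5 ratios were -0.05, 0.01, -0.02, -0.18 and -0.36, so Id3 and Id4 were still lower in the Igfbp2 cells, beyond counting error (-0.21 to -0.16 and -0.46 to -0.27). In CNC AngII the same 5 ratios were 0.23, -0.01, -0.02, -0.06 and -0.20. Smad6 was there higher in the Igfbp2 cells (0.07 to 0.42), and Id3 and Id4 were lower. Cells with Spp1, the matrix protein osteopontin, had less Id2 (217 against 307 CPM, -0.50, in SHF AngII and 219 against 298 CPM, -0.44, in CNC AngII) and less Id4 (-0.61 and -0.47) and Smad6 (-0.50 and -0.28) than cells without, and were the deeper cells (medians of 19749 against 12700.5 UMIs in SHF AngII). These splits were chosen with earlier results of these data known, and a cell's chance of a marker UMI grows with its depth.

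**Figure D4:**
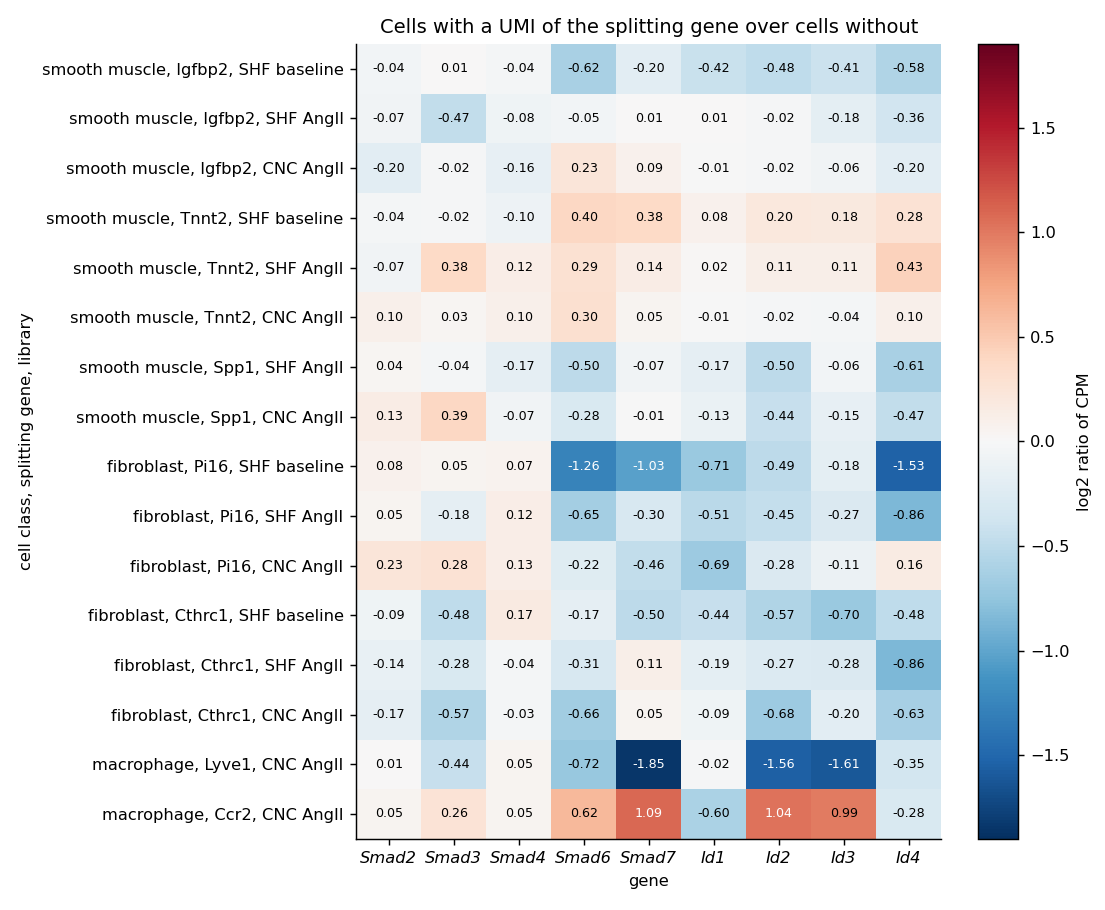
Log2 ratio of CPM between cells with and without a UMI of a splitting gene (rows: class, splitting gene and library) for each gene (columns). Blue marks lower and red higher levels in cells with the UMI. The lowest values are those of Smad7, Id3 and Id2 in Lyve1 macrophage cells, at -1.85, -1.61 and -1.56, followed by Id4 and Smad6 in baseline Pi16 fibroblasts, at -1.53 and -1.26.

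Fibroblasts were split by Pi16, a marker of adventitial fibroblasts found in at least 84.9% of them in each library. At baseline the 550 cells without Pi16 had more Smad6 (63.5 against 25.9 CPM), Smad7 (305 against 149), Id1 (290 against 177) and Id4 (45.8 against 15.2) than the 3389 cells with it. The corresponding ratios, with Pi16 over without, were -1.26, -1.03, -0.71 and -1.53, whereas Smad3 was at 0.05 and Id3 at -0.18. The Smad7 ratio of SHF AngII over SHF baseline differed between these sets. Cells with Pi16 went from 149 to 242 CPM (0.69, 0.65 to 0.75) and cells without from 305 to 299 CPM (-0.03, -0.15 to 0.08). Id2 was lower by nearly the same ratio in both sets, at -1.19 and -1.23. Cells with Cthrc1, a marker of matrix-producing fibroblasts, were 12.1%, 62.3% and 55.8% of fibroblasts, and had less Id2 in each library (-0.57, -0.27 and -0.68) and less Id3 (-0.70, -0.28 and -0.20).

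Across single smooth muscle cells, Id1 and Id3 went together more than any other pair among the 8 members that had a UMI in at least 10% of cells of each library. The Pearson r of log1p UMIs per 10000, averaged over the 3 libraries (2259, 4649 and 6385 cells), was 0.31, with 0.37, 0.29 and 0.28 in each. Over 7070 genes, Id3 was the gene most like Id1, followed by Smad7 (0.26) and Hes1 (0.23), and Id1 was the gene most like both Id3 and Smad7. Junb (0.26) and Ier2 (0.25), both immediate early genes, came next for Id3, and Neat1 (0.22) followed Id3 for Smad7. Smad6 was most like Sost (0.20), the secreted inhibitor sclerostin, then Id2 and Smad7 (both 0.17). Id2 was also most like Sost (0.23), and Id4 most like Emb (0.21), a membrane glycoprotein. For Smad2 and Smad4 no gene reached 0.1, and Smad3 was seen in too few cells to be ranked. In fibroblasts Id3 had its highest values with Cebpb (0.42), Cst3 (0.42) and Zfp36 (0.41), Smad7 with Btg2 (0.39), Gadd45b (0.37) and Csrnp1 (0.34), and Id2 with Sfrp1 (0.28). Cells of a library share its preparation and differ in depth, so these values describe the libraries, and the weaker ones are no finding.

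**Figure D5:**
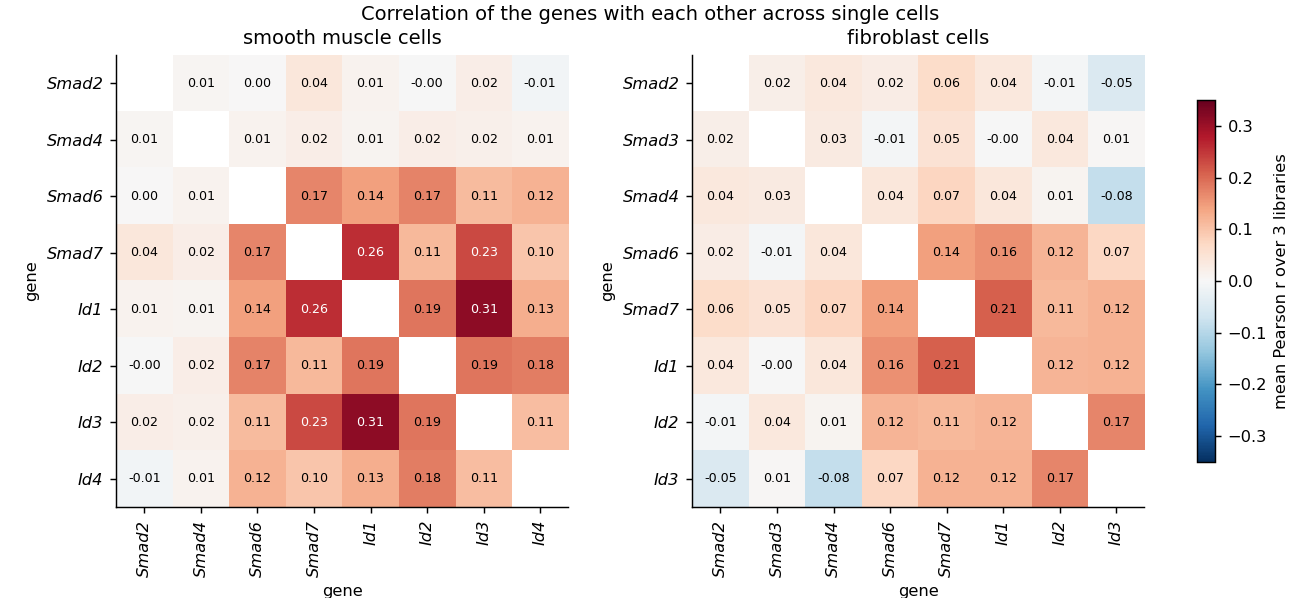
Pearson r between pairs of the genes (both axes) across single smooth muscle and fibroblast cells, averaged over the 3 libraries, for members with a UMI in at least 10% of cells of each library. The highest smooth muscle value is that of Id1 with Id3, at 0.31, and the fibroblast values reach 0.21, for Smad7 with Id1.

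Other genes of the pathway were read from 8 lists, counted among those with a mean of at least 10 CPM. The smooth muscle counts stand beside 11% higher and 20.3% lower of all genes tested, and the fibroblast counts beside 13.4% and 32.3%. In SHF AngII over SHF baseline, 2 of 6 ligands were higher in smooth muscle and 0 lower (median 0.32, against -0.10 for all genes). Inhba, a subunit of activin, went from 68.8 to 137 CPM (0.99), and Tgfb1 stood at 0.56. Of 9 receptors 1 was higher and 3 were lower (median -0.43), including Bmpr1a, a type I BMP receptor, which went from 155 to 76.1 CPM (-1.02). On the list of secreted BMP antagonists 3 of 5 were higher and 0 lower (median 0.50), with Fstl3 going from 131 to 240 CPM (0.87). The list is a grouping by name, and which ligands its genes inhibit here was not tested. Among the 12 Smad regulators 1 was higher and 3 were lower (median -0.28), such as Skil, a repressor of Smad transcription, from 197 to 105 CPM (-0.90), and Bambi, a decoy receptor, from 98.5 to 55.4 CPM (-0.82). The bHLH factors, which Id proteins bind or resemble, were lower in 6 of 10 and higher in 0 (median -0.63), led by Heyl, a Notch target, from 139 to 46.5 CPM (-1.56), and including the E protein Tcf12, from 42.3 to 26.4 CPM (-0.66). Target genes were higher in 3 of 10 and lower in 1 (median 0.37), and Ltbp2, a matrix protein of the latent TGF-beta binding family, went from 56.9 to 86.3 CPM (0.59). The immediate early list was higher in 2 of 17 and lower in 11 (median -0.81), with Btg2 at -1.45.

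In fibroblasts 6 of 8 receptors were lower and 0 higher (median -0.79, against -0.21 for all genes, of which 32.3% were lower and 13.4% higher), among them Tgfbr2, the type II TGF-beta receptor, from 150 to 67.2 CPM (-1.15). Of 12 Smad regulators 8 were lower and 1 was higher (median -0.66), and 6 of 10 bHLH factors were lower and 0 higher (median -0.80), with the E protein Tcf4 going from 319 to 94.5 CPM (-1.75). Ligands were split, 3 higher and 3 lower of 8, from Gdf6 (1.51) and Inhba (1.11) to Bmp2 (-1.84). Targets were split too, with 3 higher and 3 lower of 10: Ltbp2 went from 156 to 335 CPM (1.09) and Atoh8 from 9.18 to 23.2 CPM (1.25), whereas Tgfbi, a matrix protein named for its induction by TGF-beta, went from 239 to 70.7 CPM (-1.74). Between CNC AngII and SHF AngII at most 1 gene of any of the 8 lists was past the fold in a direction, in either class. Of all genes tested in that comparison, 1.35% were higher and 1.45% lower in smooth muscle, and 1.65% and 1.71% in fibroblasts. The list genes past the fold in smooth muscle were Tgfbr3 of 9 receptors (-0.65), Twist1 of 8 bHLH factors (-0.56) and Bambi of 12 Smad regulators (-0.53). In fibroblasts they were Inhba of 7 ligands (0.57), Chrdl1 of 7 antagonists (1.04) and Tcf21 of 10 bHLH factors (-1.10). Of 10 targets there, Ltbp2 (0.54) and Tgfbi (-0.60) were past it.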

How the data were processed

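Deposited raw UMI counts per gene and cell of 3 libraries were used, with no normalization by the authors that the files show. The submitters' processing notes name fastp, STAR 2.5, HTSeq 0.6.1 and mm10, with no order; the gene annotation is not given in the sources used here. The baseline table lists only its 18760 detected genes, the others list 32285 each, so names were matched, 513 of them by synonym, and 13 duplicated names were left out. Common genes held 99.5 to 99.8% of UMIs. Any AngII against baseline ratio includes this difference between tables. A cell needed 500 genes and no more than 10% mitochondrial UMIs to be kept, and doublets marked by Scrublet (scanpy 1.11.5; 2.01 to 2.65% of cells) were removed. Counts were summed per class and library, TMM factors came from edgeR 4.0.16, and the ratio script was tested on simulated data.

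The members and lists were chosen with earlier results of these data known. All 9 members are named; of each list, up to 4 genes per comparison with the largest ratios past the fold and a mean of at least 10 CPM could be named (1 gene of the target list is not reported here); and the 3 genes most like each member across smooth muscle cells, with fibroblast values added outside that rule. The alternatives were TMM scaling, totals without mitochondrial and ribosomal protein genes, a looser and a stricter cell filter, doublets kept, gates per 10000 UMIs, thinning, per-cell means, a pseudocount of 10 and a fold of 1; totals over common genes and the immediate early window were added after seeing the data.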

Additional observations from a re-analysis of the deposited data

Results flagged for a closer look

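At the main setting, the ratio of SHF AngII over SHF baseline lay on opposite sides of 0 in the 2 main classes for 2 genes. Smad7 was at -0.12 in smooth muscle and 0.53 in fibroblasts, so that smooth muscle minus fibroblast was -0.65 on the log2 scale. Id4 was at 0.20 in smooth muscle and -0.89 in fibroblasts, a difference of 1.10. With 1 library per group neither difference was tested. The sign of the smooth muscle value depends on the setting for both genes. Smad7 was at 0.06 there with TMM scaling and at -0.71 with the stricter cell filter. Id4 was at -0.01 in cells with 50 to 150 immediate early UMIs per 10000.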

How the results depend on the processing

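Of 132 recomputed counts of members past the fold (11 results), 122 stayed within 1.5 times the main count and 10 did not. Genes lower in smooth muscle, SHF AngII over baseline, were 6 with the stricter cell filter, which left 120 baseline cells, and 1 at a fold of 1, in place of 3. The fibroblast count of 1 higher became 0 at a fold of 1. The 1 gene lower in CNC AngII fibroblasts, Smad6, became 0 with gates per 10000 UMIs, after thinning, with a pseudocount of 10 and at a fold of 1, and 2 in the immediate early window. The 7 genes past the fold between classes were 3 at a fold of 1 in SHF baseline and 3 in SHF AngII. A larger fold or pseudocount gives fewer calls by construction, and otherwise the cause was not tested. Of 891 ratios of single genes, 589 stayed within their counting interval, 302 left it, and 0 of those past the fold reversed. No paired analysis was possible because each group has 1 library, and for the same reason no library could be left out. Depth limits Smad3 in smooth muscle and Smad6 and Id4 in macrophage cells.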
